A study of Mus musculus with 12 samples.

Results

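The 35 genes described here encode enzymes and regulators of sterol and fatty acid synthesis. They were chosen by symbol from the pathway, with earlier results of these data known, and comprise 5 regulators of the SREBP transcription factors (*Srebf1*, *Srebf2*, *Scap*, *Insig1*, *Insig2*), 18 genes of the sterol branch and 12 genes of the fatty acid branch, of 49585 genes in the count files. The libraries came from CD4 T cells that were isolated from lymph nodes with a naive CD4 kit and then activated for 20 h on plates coated with 5 µg/ml anti-CD3 and 1 µg/ml anti-CD28. *Rnmt* encodes the methyltransferase that completes the 7-methylguanosine cap of mRNA. Control cells were Rnmt fl/fl CD4cre - and *Rnmt* cKO cells were Rnmt fl/fl with CD4cre, so that both genotypes carried the floxed alleles and only the *Rnmt* cKO carried Cre, which is driven by *Cd4* regulatory sequence and acts in T cells from a stage in the thymus onwards. All cells were from female mice and were held in 0.1 mg/ml cycloheximide for 1 min before lysis. Each genotype had 3 total cytoplasmic RNA libraries, with 15079703 to 22629563 reads on genes, and 3 libraries of ribosome protected fragments (RPF), with 4123271 to 10661356 reads on genes, of which the shallowest was *Rnmt* cKO replicate 3. The labels number the replicates without saying whether each number was a separate mouse, so the p-values measure the spread between these libraries.

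Cells make sterols and fatty acids from cytosolic acetyl-CoA. In the sterol branch, the mevalonate pathway builds isoprenoid units that are joined into squalene, which is then epoxidised, cyclised and trimmed to cholesterol. In the fatty acid branch, acetyl-CoA is carboxylated to malonyl-CoA and built into palmitate, which elongases and desaturases lengthen and desaturate. Both branches are controlled by SREBP proteins, which SCAP escorts from the endoplasmic reticulum to the Golgi for cleavage when sterols are low and which INSIG proteins hold back when sterols are high. Activated T cells are known to induce this programme as they grow and prepare to divide.

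*Rnmt* itself was reduced in every *Rnmt* cKO library. In total RNA it measured 94.5, 94 and 91.5 CPM in the control libraries and 28.6, 33.4 and 31.1 CPM in the *Rnmt* cKO libraries, where CPM is the number of reads per 1000000 reads on genes in that library. In RPF it measured 104, 85.9 and 98.2 CPM in the control libraries and 10.8, 10.4 and 9.46 CPM in the *Rnmt* cKO libraries. The genotypes did not overlap in either assay (log2 fold change -1.62 ± 0.06 SE, edgeR adjusted p = 5.8e-06 in total RNA and log2 fold change -3.24 ± 0.10 SE, edgeR adjusted p = 4.8e-06 in RPF, where a negative log2 fold change means lower in *Rnmt* cKO). Exon 3 of *Rnmt* is the floxed part, so reads on the other exons can remain in deleted cells. Of 8 CD4 T cell marker genes, all were detected in all 12 libraries. Their summed level in total RNA was 3449, 3358 and 3119.9 CPM in controls and 2422, 2559 and 2883 CPM in *Rnmt* cKO, with *Cd28* the most abundant. *Cd3d*, *Cd3g*, *Lck* and *Cd5* fell in total RNA and in RPF, and *Cd2* rose in total RNA, and the part of this shift in the results below was not tested. In bulk libraries fewer cells of a type cannot be told apart from less RNA per cell, and all values are relative to the RNA that was sequenced.

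SREBP proteins bind sterol regulatory elements beside CCAAT boxes, the sites of the trimeric factor NF-Y, so these letters were searched in the promoters of the 29 member genes that RefSeq's promoter table for GRCm38.p6 lists (5 regulators, 15 sterol and 9 fatty acid genes). The window ran from 250 bases before to 50 bases after each annotated start, and both strands were read. CCAAT was found for 24 of the 29 genes, namely 14 of 15 sterol genes, 6 of 9 fatty acid genes and 4 of 5 regulators, against 41.1% of the 27025 genes in the table and 43.4% of the 8440 genes that were also tested in total RNA. The sterol regulatory element TCACNCCAC was found for 1 of the 29 genes, *Hmgcs1*, against 1.44% of all genes in the table and 1.39% of those tested. The E-box CACGTG was found for 6 of the 29, against 8.09% of all genes and 12.4% of those tested. The windows below show the element of *Hmgcs1* and the CCAAT box nearest upstream of the start for the regulator that rose most, for genes of the sterol branch that rose (*Hsd17b7*, *Cyp51*) and fell (*Pmvk*, *Nsdhl*), and for genes of the fatty acid branch that rose (*Fasn*) and fell (*Elovl5*). They are written 5′ to 3′ on the strand of the gene, and capitals mark the matched letters, with ATTGG the same box on the opposite strand.
Hmgcs1 sterol regulatory element: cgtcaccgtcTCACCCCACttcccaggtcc
Insig1: cgccctcctcccATTGGctccggcggcctc
Hsd17b7: ggccgagccttgATTGGtcgaggtgcgcgt
Cyp51: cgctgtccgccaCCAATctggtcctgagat
Pmvk: aactcaggttggCCAATtcacagcatctag
Nsdhl: aagactagcctcATTGGgcaaaatcatgct
Fasn: cctcggtgtccaATTGGtttcgatgtggag
Elovl5: ctccgggctcggATTGGctggccgcgccat

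The *Hmgcs1* window lies at chr13:119690204-119690233 on the plus strand, and the element in it begins 137 bases upstream of the start. The CCAAT windows lie at chr5:28071184-28071213 for *Insig1*, chr1:169969200-169969229 for *Hsd17b7*, chr5:4104709-4104738 for *Cyp51*, chr3:89454393-89454422 for *Pmvk*, chrX:72918489-72918518 for *Nsdhl*, chr11:120824589-120824618 for *Fasn* and chr9:77917336-77917365 for *Elovl5*. The boxes began 12 to 216 bases upstream of the starts, the nearest that of *Hsd17b7* and the farthest that of *Insig1*. The CCAAT windows were taken from genes with a match. That the genes shown, both those that rose and those that fell, carry the same 5 letters was therefore fixed by this choice. A match describes the letters in the window and is not evidence of binding.

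Among the regulators, *Insig1* stood out. It encodes the endoplasmic reticulum protein that retains SCAP and SREBP and is itself a classical SREBP target. Its level in total RNA was 64.6, 57.8 and 52.4 CPM in the control libraries and 156, 163 and 156 CPM in the *Rnmt* cKO libraries. Its level in RPF was 34.7, 33.2 and 37.4 CPM in the control libraries and 64.1, 68.8 and 64.8 CPM in the *Rnmt* cKO libraries. The genotypes did not overlap in either assay, and *Insig1* rose in total RNA (log2 fold change 1.41 ± 0.08 SE, edgeR adjusted p = 1.3e-05) and in RPF (log2 fold change 0.89 ± 0.08 SE, edgeR adjusted p = 2.2e-04). The rise in RPF was smaller than that in total RNA, so translation efficiency (TE), the ratio of RPF to total RNA tested as an interaction between assay and genotype, fell (log2 fold change -0.52 ± 0.11 SE, edgeR adjusted p = 0.008). The fall in TE was past the threshold of 0.05 in the fits that left out 1 culture, except without *Rnmt* cKO replicate 1 (log2 -0.48, adjusted p = 0.061).

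The other 4 regulators were not past the threshold with all libraries and the filter on low counts. *Srebf1*, which encodes the SREBP form that drives fatty acid genes, measured 88.4, 92.7 and 90.6 CPM in the control libraries and 83.03, 86.3 and 82.99 CPM in the *Rnmt* cKO libraries in total RNA and 171, 180.4 and 173 CPM in the control libraries and 159, 166 and 163 CPM in the *Rnmt* cKO libraries in RPF (log2 fold change -0.14 ± 0.05 SE, edgeR adjusted p = 0.052 and log2 fold change -0.13 ± 0.06 SE, edgeR adjusted p = 0.15), slightly lower without overlap in both assays. *Srebf2*, which encodes the form that drives sterol genes, measured 61.8, 58.2 and 70.2 CPM in the control libraries and 75.5, 110.3 and 64.2 CPM in the *Rnmt* cKO libraries in total RNA, where *Rnmt* cKO replicate 2 was far above the rest, and 306, 309 and 313 CPM in the control libraries and 301, 301 and 309 CPM in the *Rnmt* cKO libraries in RPF, where the 6 libraries lay close together (log2 fold change 0.36 ± 0.18 SE, edgeR adjusted p = 0.13 and log2 fold change -0.05 ± 0.05 SE, edgeR adjusted p = 0.53). Without *Rnmt* cKO replicate 3, *Srebf2* was past the threshold in total RNA (0.53, edgeR adjusted p = 0.0156) and in TE (-0.60, edgeR adjusted p = 0.0465), and with no filter in total RNA (0.34, edgeR adjusted p = 0.000394). *Scap*, the escort protein gene, measured 119.8, 116 and 109 CPM in the control libraries and 105, 117 and 116 CPM in the *Rnmt* cKO libraries in total RNA and 68.6, 65.3 and 61.5 CPM in the control libraries and 75.2, 73.2 and 96.3 CPM in the *Rnmt* cKO libraries in RPF. The genotypes of *Scap* overlapped in total RNA and did not overlap in RPF (log2 fold change -0.07 ± 0.05 SE, edgeR adjusted p = 0.32 and log2 fold change 0.29 ± 0.12 SE, edgeR adjusted p = 0.096). *Insig2*, the gene of the second retention protein, measured 15.2, 14.1 and 17.2 CPM in the control libraries and 12.8, 14.4 and 10.5 CPM in the *Rnmt* cKO libraries in total RNA and 13.04, 10.6 and 9.74 CPM in the control libraries and 6.71, 7.48 and 10.4 CPM in the *Rnmt* cKO libraries in RPF (log2 fold change -0.35 ± 0.14 SE, edgeR adjusted p = 0.068 and log2 fold change -0.49 ± 0.22 SE, edgeR adjusted p = 0.12). Its estimates were below 0, opposite in sign to those of *Insig1*, and its genotypes overlapped in both assays. *Insig2* was past the threshold as a fall in total RNA with no filter (edgeR adjusted p = 0.0273) or without *Rnmt* cKO replicate 2 (edgeR adjusted p = 0.0411), and in RPF without *Rnmt* cKO replicate 3 (edgeR adjusted p = 0.0439).

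**Figure D1:**
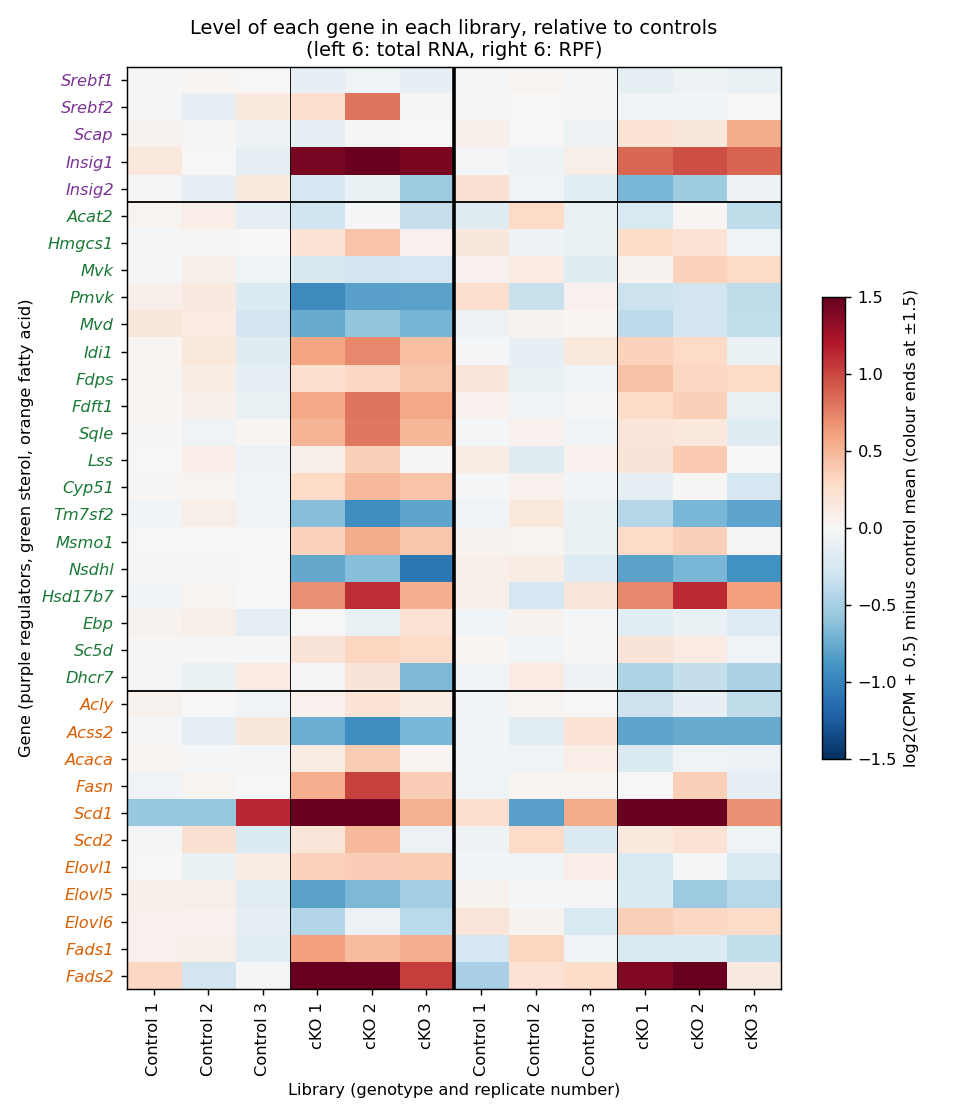
Level of the 34 tested genes in each of the 12 libraries, as log2(CPM + 0.5) minus the mean of the 3 control libraries of the same assay, with red for higher and blue for lower. *Insig1* is red in all 6 *Rnmt* cKO columns, and *Scd1* and *Fads2* are darkest in *Rnmt* cKO replicates 1 and 2.

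Across all genes tested in total RNA, 54.2% were past the threshold (26.3% higher and 28.0% lower in *Rnmt* cKO, of 11519), and this share is the background against which the members are read. In total RNA 14 of 34 tested members rose and 8 fell. The sterol branch had 8 rises and 5 falls among 18 genes, 72.2% past the threshold, and the fatty acid branch had 5 rises and 3 falls among 11, 72.7%. The median log2 fold change was 0.17 in each branch and -0.00 over all genes. The genotypes did not overlap for 23 of the 34 members (67.6%), against 60.9% of all genes. With all libraries the 2 branches thus had near equal shares and medians in total RNA. Leaving out 1 library moved the median to between 0.09 and 0.32 in the fatty acid branch and to between 0.13 and 0.23 in the sterol branch. Without *Rnmt* cKO replicates 1 and 2 the fatty acid branch had 2 rises and a median of 0.00 and the sterol branch 6 rises and a median of 0.12. The contrast between branches is a description, since no test of a list was made, and the members' counts are not independent of one another.

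Within the sterol branch, rises and falls sat side by side along the pathway. Up to squalene synthase 3 genes rose and 3 fell among 8 (median -0.03), and from squalene onwards 5 rose and 2 fell among 10 (median 0.18). *Idi1*, which isomerises isopentenyl diphosphate, measured 5.98, 6.61 and 5.13 CPM in the control libraries and 9.09, 9.998 and 8.22 CPM in the *Rnmt* cKO libraries in total RNA. *Fdft1*, squalene synthase, measured 30.02, 31.1 and 27.4 CPM in the control libraries and 43.9, 51.9 and 44.3 CPM in the *Rnmt* cKO libraries. *Hsd17b7*, a ketosteroid reductase of sterol demethylation, measured 13.9, 14.8 and 14.4 CPM in the control libraries and 23.5, 31.4 and 21.3 CPM in the *Rnmt* cKO libraries. All *Rnmt* cKO libraries lay above all controls for these 3 genes, which rose most in the branch (log2 fold change 0.59 ± 0.13 SE, edgeR adjusted p = 0.0066 for *Idi1*, log2 fold change 0.63 ± 0.08 SE, edgeR adjusted p = 4.6e-04 for *Fdft1* and log2 fold change 0.78 ± 0.14 SE, edgeR adjusted p = 0.0021 for *Hsd17b7*). Smaller rises were those of *Sqle* (log2 0.57), *Msmo1* (0.41), *Cyp51* (0.37), *Fdps* (0.30) and *Sc5d* (0.24), which encode squalene epoxidase, the sterol C4 methyl oxidase, lanosterol demethylase, farnesyl diphosphate synthase and the sterol C5 desaturase. The call of *Fdps* (edgeR adjusted p = 0.038) was lost in 5 of the 6 fits that left out 1 library, all but that without *Rnmt* cKO replicate 2, with estimates of 0.24 to 0.35 over the 6 fits. It was also lost with DESeq2 (adjusted p = 0.0892), the edgeR exact test (adjusted p = 0.0534) and no filter (edgeR adjusted p = 0.144).

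The falls in the sterol branch included consecutive kinases and a decarboxylase of the mevalonate pathway. *Pmvk*, phosphomevalonate kinase, measured 42.2, 44.1 and 34.7 CPM in the control libraries and 20.5, 22.6 and 22.8 CPM in the *Rnmt* cKO libraries in total RNA. *Tm7sf2*, a sterol C14 reductase, measured 5.77, 6.34 and 5.703 CPM in the control libraries and 3.65, 2.87 and 3.23 CPM in the *Rnmt* cKO libraries. *Nsdhl*, the dehydrogenase that acts between *Msmo1* and *Hsd17b7* in removal of the C4 methyl groups, measured 20.3, 19.8 and 20.2 CPM in the control libraries and 11.6, 12.8 and 9.19 CPM in the *Rnmt* cKO libraries. For each of these genes the highest *Rnmt* cKO value was below the lowest control value (log2 fold change -0.91 ± 0.09 SE, edgeR adjusted p = 1.5e-04 for *Pmvk*, log2 fold change -0.91 ± 0.15 SE, edgeR adjusted p = 0.0013 for *Tm7sf2* and log2 fold change -0.89 ± 0.13 SE, edgeR adjusted p = 7.1e-04 for *Nsdhl*). *Mvd*, mevalonate diphosphate decarboxylase, fell by 0.75 and *Mvk*, mevalonate kinase, by 0.30 on the log2 scale. *Acat2*, *Hmgcs1*, *Lss*, *Ebp* and *Dhcr7* were not past the threshold (log2 -0.26, 0.21, 0.13, 0.01 and -0.17).

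The genes of the sterol branch that fell in total RNA had merged exon lengths of 1694 to 2168 bases in GENCODE M21. The 8 that rose ranged from 1453 to 5046 bases with a median of 3363, and those not past the threshold from 1743 to 4667 bases. *Fdps*, the shortest of the branch, rose. This length merges all annotated exons of a gene and is not that of a transcript measured in these cells. Among 10268 tested protein-coding genes, 33.0% of those under 2.5 kb fell and 23.7% rose, against 26.4% and 28.3% of those of 2.5 kb and over, and the Spearman correlation of length and log2 fold change was 0.10, across genes that are not independent replicates. In the fatty acid branch the 3 genes that fell measured 2782 to 6134 bases and the 5 that rose 1941 to 10050 bases.

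Fewer genes were past the threshold in RPF than in total RNA. The RPF libraries had fewer reads (median 8282043 against 18986439 on genes) and a larger median SE of the log2 fold change (0.124 against 0.101). Across all genes 29.8% of 11428 were past the threshold in RPF (14.1% higher and 15.7% lower), and of the members 4 rose and 7 fell of 34, or 32.4%. In the sterol branch 1 gene rose and 4 fell among 18 (27.8%, median log2 fold change 0.05), a share near the background. Up to squalene 0 genes rose and 1 fell among 8 (median 0.15), and after it 1 rose and 3 fell among 10 (median -0.05). In the fatty acid branch 2 rose and 3 fell among 11 (45.5%, median -0.14). The genotypes did not overlap in RPF for 15 of the 34 members (44.1%), against 45.9% of all genes. Of the 8 sterol genes that rose in total RNA, *Hsd17b7* was also past the threshold in RPF and the other 7 were not. Of the 5 that fell in total RNA, *Mvd*, *Tm7sf2* and *Nsdhl* were also lower in RPF. *Dhcr7*, the last reductase of the Kandutsch-Russell route to cholesterol, was lower in RPF alone by this threshold. A gene past the threshold in one assay and not in the other is not shown to differ between them, which is what the test of TE addresses.

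The RPF levels of these genes were as follows. *Hsd17b7* measured 9.57, 7.37 and 10.2 CPM in the control libraries and 15.1, 20.1 and 14.1 CPM in the *Rnmt* cKO libraries, with no overlap (log2 fold change 0.84 ± 0.19 SE, edgeR adjusted p = 0.012). *Nsdhl* measured 56.3, 57.5 and 46.5 CPM in the control libraries and 30.3, 32.9 and 28.1 CPM in the *Rnmt* cKO libraries, again with no overlap (log2 fold change -0.83 ± 0.11 SE, edgeR adjusted p = 0.0012). *Dhcr7* in RPF measured 106, 119 and 104 CPM in the control libraries and 79.8, 85.5 and 78.6 CPM in the *Rnmt* cKO libraries, with every *Rnmt* cKO library lower (log2 fold change -0.46 ± 0.08 SE, edgeR adjusted p = 0.0041), while in total RNA its genotypes overlapped at 15.2, 14.4 and 16.95 CPM in controls and 15.3, 17.8 and 9.54 CPM in *Rnmt* cKO (log2 fold change -0.17 ± 0.21 SE, edgeR adjusted p = 0.51). *Tm7sf2*, the least abundant of these in RPF, measured 7.598, 8.84 and 7.304 CPM in the control libraries and 5.75, 4.72 and 4.37 CPM in the *Rnmt* cKO libraries (log2 fold change -0.69 ± 0.20 SE, edgeR adjusted p = 0.034). The calls of *Nsdhl* and *Dhcr7* were kept when any 1 library was left out. That of *Tm7sf2* was lost in all 6 such fits (estimates -0.79 to -0.60), that of *Mvd* (log2 fold change -0.38 ± 0.09 SE, edgeR adjusted p = 0.019) without control replicate 3 or *Rnmt* cKO replicate 1 (-0.44 to -0.33 over the 6 fits) and that of *Hsd17b7* without *Rnmt* cKO replicate 2 (0.67). *Pmvk* measured 52.5, 34.6 and 45.8 CPM in the control libraries and 34.97, 35.9 and 33.5 CPM in the *Rnmt* cKO libraries in RPF, where the genotypes overlapped (log2 fold change -0.37 ± 0.14 SE, edgeR adjusted p = 0.075). *Idi1* at 9.94, 9.28 and 11.4 CPM in controls and 13.1, 12.7 and 9.46 CPM in *Rnmt* cKO and *Fdft1* at 45.7, 42 and 42.97 CPM in controls and 52.6, 55.7 and 40.3 CPM in *Rnmt* cKO overlapped as well (0.19 and 0.17 on the log2 scale).

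**Figure D2:**
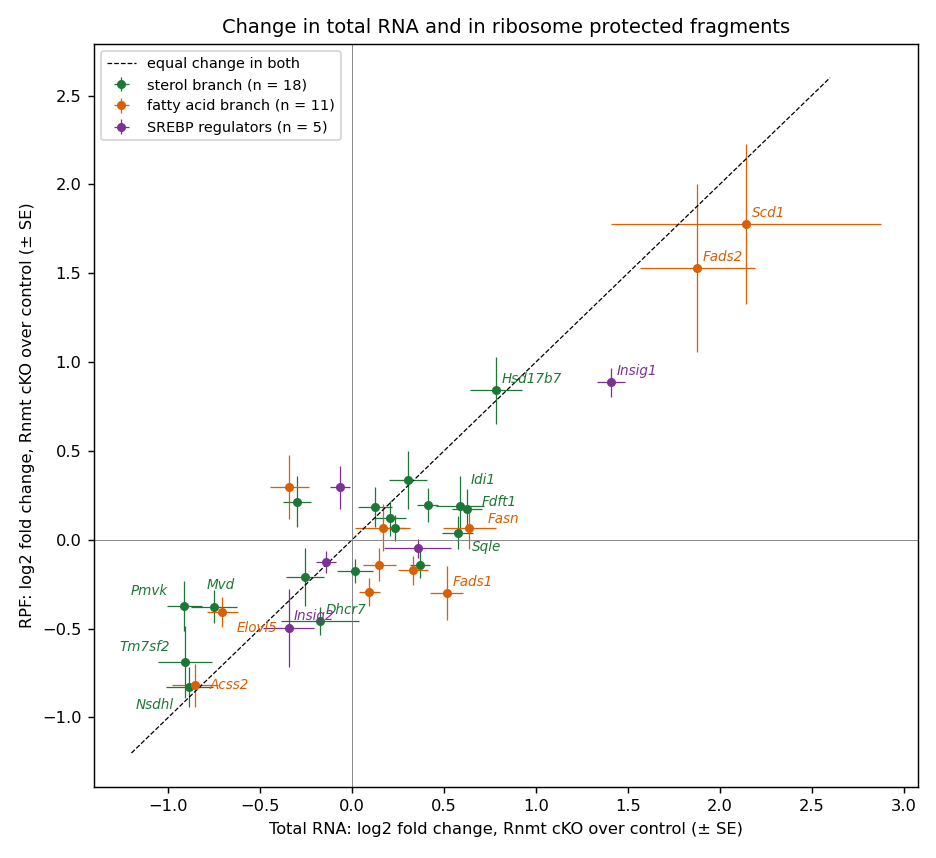
Log2 fold change of *Rnmt* cKO over control in total RNA (horizontal) against that in RPF (vertical) for the 34 tested genes, with bars of 1 SE and a dashed line of equal change. Sterol genes that rose in total RNA lie below the line at RPF values near 0, apart from *Hsd17b7* and *Fdps*, whereas *Nsdhl*, *Tm7sf2* and *Acss2* lie near the line at the lower left.

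Taking the sterol genes as a summed level, the 18 genes together had 889, 904 and 850.2 CPM in controls and 997, 1141 and 1006 CPM in *Rnmt* cKO in total RNA, where every *Rnmt* cKO library was higher. In RPF their sum was 1544, 1495 and 1436 CPM in controls and 1531, 1585 and 1316 CPM in *Rnmt* cKO, where the genotypes overlapped. The ratio of the mean sums, *Rnmt* cKO over control, was 1.19 in total RNA and 0.99 in RPF, and 1.19 and 0.96 without *Hmgcs1*, HMG-CoA synthase, one of the most abundant genes of the branch. The 12 genes of the fatty acid branch summed to 1054, 1081 and 990.1 CPM in controls and 1137, 1366 and 1085 CPM in *Rnmt* cKO in total RNA and to 1992, 2133 and 2075 CPM in controls and 1894, 2201 and 1746 CPM in *Rnmt* cKO in RPF, with mean ratios of 1.15 and 0.94. In total RNA the fatty acid sum of *Rnmt* cKO replicate 3 exceeded the highest control only by library totals. With TMM effective library sizes it was 1059 CPM against 1064, 1080.2 and 1018 CPM in controls. *Fasn*, fatty acid synthase, carried most of the difference in total RNA, since the ratios without it were 1.03 and 0.87.

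**Figure D3:**
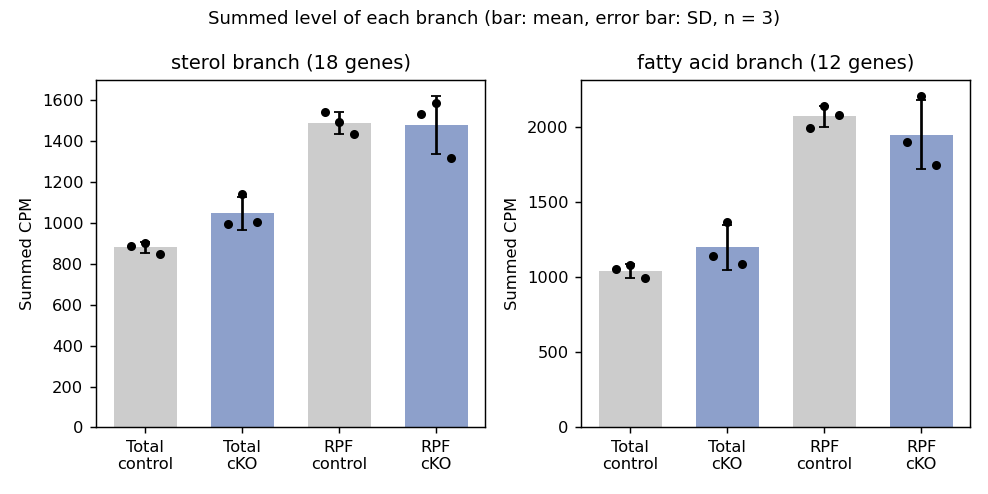
Summed CPM of the 18 sterol genes (left) and the 12 fatty acid genes (right) by genotype and assay, with bars at the mean of 3 libraries, error bars of 1 SD and a point for each library. In total RNA the 3 *Rnmt* cKO points are above the 3 controls in both branches, in the fatty acid branch by library totals and not with TMM effective library sizes, and in RPF the points of the genotypes overlap.

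The fatty acid branch opens with the supply of cytosolic acetyl-CoA and NADPH. *Acly*, which cleaves citrate to acetyl-CoA, was the most abundant member per kb of exon in control total RNA (71.8 CPM per kb). *Acly* measured 343, 330.1 and 319 CPM in the control libraries and 346, 381 and 358 CPM in the *Rnmt* cKO libraries in total RNA (log2 fold change 0.09 ± 0.06 SE, edgeR adjusted p = 0.2). In RPF it measured 668, 710.3 and 689 CPM in the control libraries and 555, 631 and 529 CPM in the *Rnmt* cKO libraries, all lower in *Rnmt* cKO (log2 fold change -0.29 ± 0.08 SE, edgeR adjusted p = 0.023). *Acss2*, which makes acetyl-CoA from acetate, fell in both assays. It measured 19.7, 18.1 and 22.7 CPM in the control libraries and 11.7, 10.3 and 12.2 CPM in the *Rnmt* cKO libraries in total RNA and 30.7, 28 and 36.4 CPM in the control libraries and 17.96, 18.4 and 18.4 CPM in the *Rnmt* cKO libraries in RPF, without overlap (log2 fold change -0.85 ± 0.12 SE, edgeR adjusted p = 8.0e-04 and log2 fold change -0.82 ± 0.12 SE, edgeR adjusted p = 0.0019). *Me1*, malic enzyme, had 0 to 4 reads in a library and was not tested. The call of *Acly* in RPF was lost in 4 of 6 fits that left out 1 library (control replicate 2 or 3, *Rnmt* cKO replicate 1 or 3), with estimates of -0.36 to -0.25.

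Of the 9 genes of synthesis, desaturation and elongation, 5 rose and 2 fell in total RNA, with a median of 0.33, and in RPF 2 rose and 1 fell, with a median of 0.07, of opposite sign to that of all 11 tested genes of the branch. *Fasn* measured 214, 228 and 223 CPM in the control libraries and 324, 451 and 286 CPM in the *Rnmt* cKO libraries in total RNA, with *Rnmt* cKO replicate 2 the highest and no overlap (log2 fold change 0.64 ± 0.15 SE, edgeR adjusted p = 0.0067). In RPF it measured 752, 805 and 813 CPM in the control libraries and 784, 1014 and 721 CPM in the *Rnmt* cKO libraries, where the genotypes overlapped (log2 fold change 0.07 ± 0.12 SE, edgeR adjusted p = 0.71). *Elovl5*, an elongase of polyunsaturated fatty acids, measured 166, 167 and 140.4 CPM in the control libraries and 89.9, 98.3 and 109 CPM in the *Rnmt* cKO libraries in total RNA and 193, 184 and 182 CPM in the control libraries and 162, 128 and 139 CPM in the *Rnmt* cKO libraries in RPF, lower in every *Rnmt* cKO library in both (log2 fold change -0.71 ± 0.08 SE, edgeR adjusted p = 2.8e-04 and log2 fold change -0.41 ± 0.08 SE, edgeR adjusted p = 0.0085). *Acaca*, the acetyl-CoA carboxylase that makes malonyl-CoA, and *Scd2*, a stearoyl-CoA desaturase, were not past the threshold in either assay (log2 0.15 and 0.17 in total RNA, -0.14 and 0.07 in RPF).

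*Fads1*, the delta-5 desaturase, *Elovl1*, an elongase of very long chains, and *Elovl6*, an elongase of palmitate, had estimates of opposite sign in the 2 assays. *Fads1* measured 32.8, 33.3 and 27.99 CPM in the control libraries and 48.3, 43.6 and 45.9 CPM in the *Rnmt* cKO libraries in total RNA, where it rose (log2 fold change 0.52 ± 0.09 SE, edgeR adjusted p = 0.0019). In RPF it measured 31.6, 47.6 and 36.6 CPM in the control libraries and 32.8, 32.95 and 29.3 CPM in the *Rnmt* cKO libraries, with overlap (log2 fold change -0.30 ± 0.15 SE, edgeR adjusted p = 0.18). *Elovl1* showed the same order, at 31.3, 28.9 and 34.01 CPM in controls and 39.9, 40.5 and 41.1 CPM in *Rnmt* cKO in total RNA (log2 fold change 0.33 ± 0.08 SE, edgeR adjusted p = 0.011) and 103, 103 and 114 CPM in controls and 91.1, 106 and 91.2 CPM in *Rnmt* cKO in RPF (log2 fold change -0.17 ± 0.08 SE, edgeR adjusted p = 0.15). *Elovl6* showed the reverse, at 28.8, 28.8 and 24.9 CPM in controls and 20.2, 25.9 and 20.7 CPM in *Rnmt* cKO in total RNA (log2 fold change -0.34 ± 0.11 SE, edgeR adjusted p = 0.026) and 8.63, 7.81 and 6.33 CPM in controls and 9.82, 9.44 and 9.22 CPM in *Rnmt* cKO in RPF (log2 fold change 0.30 ± 0.18 SE, edgeR adjusted p = 0.24). The fall of *Elovl6* in total RNA was lost without control replicate 1 or 2 or *Rnmt* cKO replicate 1 or 3, with estimates of -0.43 to -0.27, and without TMM scaling (edgeR adjusted p = 0.053).

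The largest log2 fold changes of the branch were those of *Scd1* and *Fads2*, which were also its least abundant tested genes. *Scd1*, a stearoyl-CoA desaturase, measured 0.8396, 0.846 and 3.87 CPM in the control libraries and 10.3, 12.98 and 2.39 CPM in the *Rnmt* cKO libraries in total RNA. *Fads2*, the delta-6 desaturase, measured 1.05, 0.529 and 0.733 CPM in the control libraries and 3.32, 3.46 and 2.08 CPM in the *Rnmt* cKO libraries. *Rnmt* cKO replicates 1 and 2 were the highest for both genes, and the level of *Scd1* in control replicate 3 exceeded that in *Rnmt* cKO replicate 3. In total RNA both genes passed the filter on low counts through the *Rnmt* cKO libraries. *Scd1* was below 1 CPM in control replicates 1 and 2, and *Fads2* in control replicates 2 and 3. No conclusion is drawn from their calls in total RNA. In RPF *Scd1* measured 3.66, 1.47 and 4.63 CPM in the control libraries and 13.2, 15.4 and 5.09 CPM in the *Rnmt* cKO libraries and *Fads2* 1.88, 3.39 and 3.53 CPM in the control libraries and 8.26, 13.2 and 3.15 CPM in the *Rnmt* cKO libraries. *Scd1* passed the threshold in total RNA (log2 fold change 2.14 ± 0.73 SE, edgeR adjusted p = 0.038) and in RPF (log2 fold change 1.78 ± 0.45 SE, edgeR adjusted p = 0.02), as did *Fads2* (log2 fold change 1.88 ± 0.31 SE, edgeR adjusted p = 0.0015 and log2 fold change 1.53 ± 0.47 SE, edgeR adjusted p = 0.04).

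Markers of B cells followed the same libraries. The summed level of *Cd79a*, *Cd79b*, *Ms4a1* and *Pax5* was 6.98, 4.55 and 23.9 CPM in controls and 62.5, 85.9 and 15.03 CPM in *Rnmt* cKO in total RNA and 8.72, 7.52 and 27.5 CPM in controls and 92.5, 106 and 14.6 CPM in *Rnmt* cKO in RPF, with *Ms4a1* the most abundant in total RNA and in RPF together. Of the 4 markers, *Cd79b* and *Ms4a1* rose in total RNA, where 3 passed the filter, and the same 2 rose in RPF. Like *Scd1* in total RNA, the summed level in both assays was highest in *Rnmt* cKO replicates 1 and 2 and higher in control replicate 3 than in *Rnmt* cKO replicate 3. Singly, *Cd79a* and *Cd79b* in total RNA were slightly higher in *Rnmt* cKO replicate 3 than in control replicate 3. Without *Rnmt* cKO replicates 1 and 2, *Scd1* in RPF had a log2 fold change of 0.63 (edgeR adjusted p = 0.56) and *Fads2* of 0.13 (edgeR adjusted p = 0.91), and in total RNA neither passed the filter on low counts. *Fasn*, *Fads1*, *Acss2* and *Elovl5* kept their calls in total RNA in that fit (log2 0.35, 0.53, -0.75 and -0.55), with the estimate of *Fasn* down from 0.64, as did *Insig1* at 1.40. In the same fit *Elovl1*, *Idi1*, *Mvk* and *Fdps* lost their calls in total RNA (edgeR adjusted p = 0.0502, 0.0795, 0.0867 and 0.0584). In RPF *Acss2*, *Dhcr7*, *Acly*, *Mvd*, *Tm7sf2* and *Hsd17b7* lost theirs (edgeR adjusted p = 0.071, 0.0682, 0.0599, 0.187, 0.173 and 0.198). In TE *Insig1*, *Fads1*, *Elovl1*, *Acly* and *Elovl6* lost theirs. *Insig2*, *Dhcr7* and *Acat2* were then past the threshold as falls in total RNA. *Scap* was past it as a rise in RPF and in TE. Only 1 *Rnmt* cKO library of each assay remained in that fit. It is assumed to vary like the controls. The part of B cells in the results of *Scd1* and *Fads2* was not tested. Leaving out 1 library also ended 3 of these 4 calls in some fits. That of *Fads2* in total RNA was kept in all 6 fits (1.66 to 2.16), with the limit that the gene passed the filter through the *Rnmt* cKO libraries. That of *Scd1* in total RNA was lost without control replicate 1 or 2 or *Rnmt* cKO replicate 1 or 2 (estimates 1.72 to 3.29) and in RPF without control replicate 1 or *Rnmt* cKO replicate 1 or 2 (1.46 to 2.08), and that of *Fads2* in RPF was kept only without *Rnmt* cKO replicate 3 (1.01 to 1.87).

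**Figure D4:**
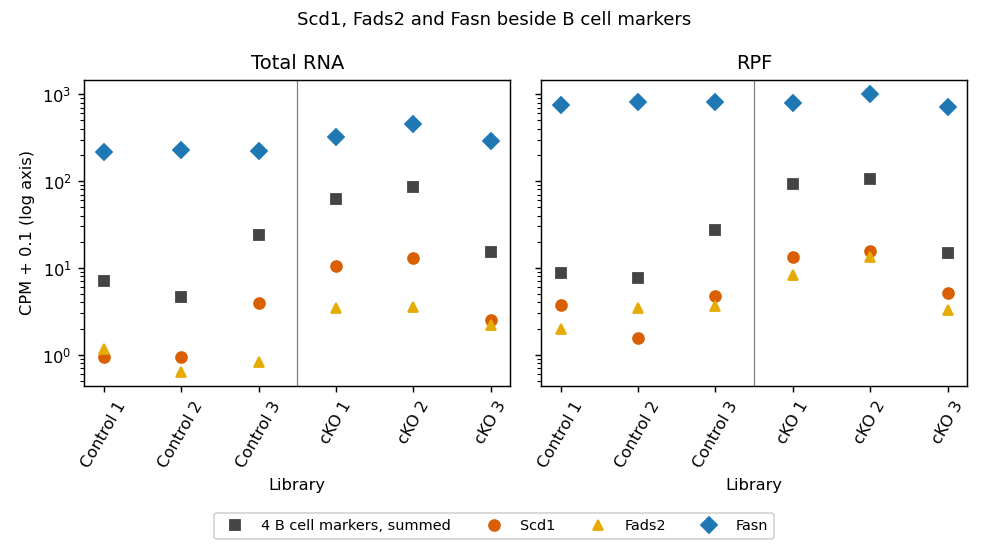
CPM + 0.1 on a log axis in each library for *Scd1*, *Fads2*, *Fasn* and the sum of 4 B cell markers, in total RNA (left) and RPF (right), with a line between the 3 control and the 3 *Rnmt* cKO libraries. *Scd1* and the B cell markers are highest in *Rnmt* cKO replicates 1 and 2 in both assays, and *Fasn* varies over a narrower range.

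The 2 CD8 T cell markers summed to 21.2, 21.4 and 40.5 CPM in controls and 25.8, 21.96 and 10.1 CPM in *Rnmt* cKO in total RNA and to 29.5, 28.6 and 53.3 CPM in controls and 39.5, 28.03 and 15.04 CPM in *Rnmt* cKO in RPF, with *Cd8b1* the most abundant in total RNA and in RPF together. In total RNA alone the mean of *Cd8a* was slightly above that of *Cd8b1* (14.4 against 13.3 CPM in controls, 9.72 against 9.56 CPM in *Rnmt* cKO). Their sum was above that of the B cell markers in all control libraries, and neither gene was past the threshold in either assay. Markers of other cells were lower. Of the 3 NK cell markers the sums reached 1.77 CPM, of the 5 myeloid markers 0.928 CPM and of the 6 stromal and adipocyte markers 1.10 CPM in any library, with *Ncr1*, *Lyz2* and *Col1a1* the most abundant, and none of these 14 genes passed the filter. *Adipoq* and *Plin1*, which define adipocytes, had at most 0.120 and 0.243 CPM in any of the 12 libraries. The sum of the NK cell markers was 0.157, 0.159 and 0.105 CPM in controls and 0.796, 1.33 and 0.707 CPM in *Rnmt* cKO in total RNA and 0, 0 and 0.243 CPM in controls and 1.08, 1.77 and 0.9701 CPM in *Rnmt* cKO in RPF, higher in every *Rnmt* cKO library in both assays. *Ncr1*, with 0 to 12 reads in a library, did not overlap between genotypes in either. *Klrb1c* did not overlap in total RNA and overlapped in RPF, and *Klra8* overlapped in both. Over all genes tested the genotypes did not overlap for 60.9% in total RNA and 45.9% in RPF. The part of NK cells in the results was not tested.

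The desaturase genes lie in clusters on chromosome 19 (GRCm38). *Scd1* lies at chr19:44394455-44407879 and *Scd2* at chr19:44293674-44306864, with *Scd4* between them, and *Fads2* lies at chr19:10062765-10101746 and *Fads1* at chr19:10182888-10196877. Of the 2 members in each cluster the less abundant gene had the larger log2 fold change, and in total RNA that gene passed the filter through the *Rnmt* cKO libraries. In control total RNA *Scd2* was at 31.0 ± 4.81 CPM per kb and *Scd1* at 0.383 ± 0.362, and *Fads1* was at 9.06 ± 0.850 and *Fads2* at 0.245 ± 0.0833 (SD, n = 3).

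In translation efficiency 9.81% of 10668 genes were past the threshold (3.24% higher and 6.57% lower in *Rnmt* cKO). The fatty acid branch had 1 rise and 3 falls among 11 (36.4%, median -0.30), the sterol branch 0 rises and 2 falls among 18 (11.1%, median -0.03) and the regulators 1 fall among 5, beside a median of 0.04 over all genes. The sterol share was near the background. Since no test of a list was made, the difference between the branches was not tested. In the sterol branch the medians of the parts were 0.04 up to squalene and -0.18 after it.

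In the sterol branch *Sqle* and *Cyp51* fell in TE. *Sqle* measured 67.7, 64.4 and 68.02 CPM in the control libraries and 95.6, 116 and 94.1 CPM in the *Rnmt* cKO libraries in total RNA, where it rose (log2 fold change 0.57 ± 0.08 SE, edgeR adjusted p = 7.8e-04). In RPF it measured 116, 123 and 114 CPM in the control libraries and 133, 131 and 103 CPM in the *Rnmt* cKO libraries, with overlap (log2 fold change 0.04 ± 0.09 SE, edgeR adjusted p = 0.77). Its TE fell (log2 fold change -0.53 ± 0.13 SE, edgeR adjusted p = 0.022). *Cyp51* measured 203, 207 and 192 CPM in the control libraries and 246, 280.1 and 270.4 CPM in the *Rnmt* cKO libraries in total RNA (log2 fold change 0.37 ± 0.06 SE, edgeR adjusted p = 9.2e-04) and 282, 299 and 277 CPM in the control libraries and 259.8, 289.8 and 241 CPM in the *Rnmt* cKO libraries in RPF (log2 fold change -0.14 ± 0.08 SE, edgeR adjusted p = 0.2), and its TE fell (log2 fold change -0.51 ± 0.10 SE, edgeR adjusted p = 0.0054). *Cyp51* was the only member whose TE call held in all 6 fits without 1 culture (-0.57 to -0.46). That of *Sqle* was lost without control replicate 1 or 2 (-0.61 to -0.45 over the 6 fits). Estimates for the 3 mevalonate genes that fell in total RNA were above 0 in TE but not past the threshold (log2 fold change 0.54 ± 0.18 SE, edgeR adjusted p = 0.074 for *Pmvk*, log2 fold change 0.51 ± 0.16 SE, edgeR adjusted p = 0.058 for *Mvk* and log2 fold change 0.38 ± 0.16 SE, edgeR adjusted p = 0.16 for *Mvd*).

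In the fatty acid branch *Fads1* (log2 fold change -0.81 ± 0.19 SE, edgeR adjusted p = 0.016), *Elovl1* (log2 fold change -0.50 ± 0.12 SE, edgeR adjusted p = 0.017) and *Acly* (log2 fold change -0.38 ± 0.10 SE, edgeR adjusted p = 0.027) fell in TE and *Elovl6* rose (log2 fold change 0.64 ± 0.18 SE, edgeR adjusted p = 0.046). Each of these calls was lost in some fits without 1 culture, with estimates of the same sign. *Fads1* was lost without control replicate 3 or *Rnmt* cKO replicate 1 (-0.99 to -0.66), *Elovl1* without control replicate 1 or 2 or *Rnmt* cKO replicate 1 (-0.61 to -0.45), and *Acly* (-0.45 to -0.34) and *Elovl6* (0.57 to 0.74) in all fits but that without *Rnmt* cKO replicate 2. *Fasn* was at log2 fold change -0.57 ± 0.21 SE, edgeR adjusted p = 0.1. When the total RNA and RPF libraries of a culture were paired as a block, *Fasn* (-0.56, edgeR adjusted p = 0.0035) and *Fdft1* (-0.47, edgeR adjusted p = 0.025) were also past the threshold and no member call in TE was lost.

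**Figure D5:**
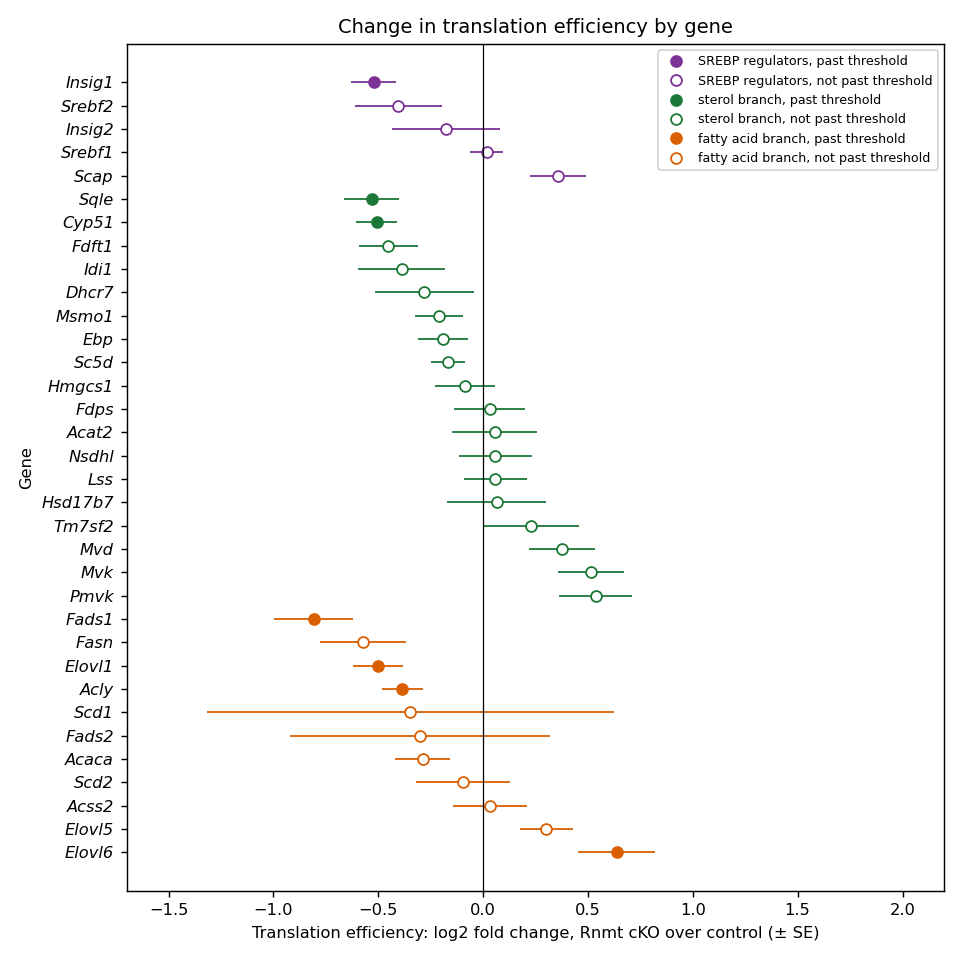
Log2 fold change in TE, *Rnmt* cKO over control, for the 34 tested genes with bars of 1 SE, filled where the edgeR adjusted p was under 0.05. The filled points are *Insig1*, *Sqle*, *Cyp51*, *Fads1*, *Elovl1* and *Acly* below 0 and *Elovl6* above 0.

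In control cells most members had a TE above the median of all genes. The median percentile among the tested genes was 63.7 for the sterol branch, 69.9 for the fatty acid branch and 24.8 for the regulators. TE here is RPF over total RNA reads of the whole gene, so its value also depends on the coding share of the exons. After division by the coding share of the exon length the percentiles were 62.3, 71.2 and 48.6. Highest in the sterol branch was *Dhcr7*, at a log2 TE of 2.82 ± 0.21 (SD, n = 3, percentile 98.8), and among the regulators *Srebf2* at 2.29 ± 0.13 (percentile 97.5). Lowest in the fatty acid branch was *Elovl6* at -1.87 ± 0.12 (percentile 4.2), and after the correction *Acaca* (percentile 17.1, with *Elovl6* at 39.6).

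Levels in control total RNA ran over a wide range per kb of exon. After *Acly* came *Elovl5* (56.8 ± 5.48 CPM per kb, SD, n = 3), *Cyp51* (51.0 ± 1.97), *Hmgcs1* (49.3 ± 0.502), *Msmo1* (36.3 ± 0.182) and *Scd2* (31.0 ± 4.81), and at the lower end stood *Hsd17b7* (2.85 ± 0.0889), *Idi1* (1.95 ± 0.246), *Scd1* and *Fads2*. Of these neighbours, *Cyp51* and *Hmgcs1* differed by less than the SD of *Cyp51*, and *Scd1* and *Fads2* by less than the SD of *Scd1*. Words of 30 bases that recur in the exons of other genes made up 44.0% of *Acat2*, 37.4% of *Me1*, 33.7% of *Acaca*, 32.2% of *Fdft1*, 28.0% of *Fdps* and 27.2% of *Idi1*. Reads on these genes are therefore less certain, including the low counts of *Me1*. The shares were 8.42% for *Scd1* and 7.05% for *Scd2*, with *Scd3* the gene that shared most.

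Of 64 related genes of sterol and lipid metabolism outside the members, 56 were tested. In total RNA 18 rose and 18 fell (64.3%, against 54.2% of all genes, median 0.04), in RPF 8 rose and 11 fell (33.9% against 29.8%) and in TE 4 rose and 1 fell (8.93% against 9.81%). Fits that left out 1 culture gave 10 to 17 rises and 16 to 18 falls in total RNA. They gave 8 to 9 rises and 7 to 10 falls in RPF and 1 to 5 rises and 0 to 2 falls in TE. By role, with the same 54.2% as background, total RNA had 4 rises and 2 falls among 8 other genes of sterol and isoprenoid synthesis, 3 and 3 among 10 of SREBP processing and turnover, 4 and 4 among 12 tested of sterol uptake and transport, 3 and 7 among 16 tested of fatty acid synthesis, activation and elongation, and 4 and 2 among 10 of lipid assembly. *Elovl7*, an elongase, was the only related gene past the threshold with a log2 fold change beyond 1, and it was low throughout. In total RNA this gene passed the filter through the control libraries alone, since every *Rnmt* cKO library was below 1 CPM. No conclusion is drawn from its call. It measured 1.36, 1.11 and 1.31 CPM in the control libraries and 0.862, 0.745 and 0.309 CPM in the *Rnmt* cKO libraries in total RNA (log2 fold change -1.07 ± 0.35 SE, edgeR adjusted p = 0.033) and 2.34, 4.13 and 1.22 CPM in the control libraries and 1.08, 0.885 and 1.21 CPM in the *Rnmt* cKO libraries in RPF (log2 fold change -1.30 ± 0.51 SE, edgeR adjusted p = 0.087).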

How the data were processed

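Total cytoplasmic RNA and RPF libraries of 20 h activated CD4 T cells, 3 per genotype and assay, were analysed. Per the labels the authors processed reads with FastQC, cutadapt, Bowtie, STAR 2.5.2b and edgeR on GRCm38, and deposited a table of counts per gene for each library. The second strand column was used, the one from which the authors' table of normalized signal follows by a single factor per library. That table lists 10126 genes, 34 of the members among them, and the authors' signal values served only for this check and for symbols; its fold changes, TE values and p-values were not used. Members were matched by symbol, and 49326 of 49585 identifiers were found in GENCODE M21.

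Genes with at least 1 CPM in at least 3 libraries of the assay were fitted across the whole table by the edgeR 4.0.16 quasi-likelihood test with TMM scaling (R 4.3.3, limma 3.58.1), on genotype for total RNA and for RPF and on genotype, assay and their interaction for TE. P-values were adjusted by Benjamini-Hochberg over all genes, and 0.05 was the threshold. The procedure was tested on simulated data. Library values are CPM of the library total. The members and lists were chosen with earlier results of these data known. Values in every library are given for *Rnmt*, the regulators and, in each branch and comparison, the 3 largest rises and falls past the threshold; related genes are named beyond a log2 fold change of 1. The result of 1 marker gene is not reported here. The labels do not say that total RNA and RPF libraries of one number share a culture. Their deviations from the group means correlated with r of 0.16, 0.20, 0.38, 0.11, 0.36 and 0.29, so they were treated as pairs in an alternative fit. Other alternatives were DESeq2 1.42.0, the edgeR exact test, no TMM scaling, no filter, at least 10 counts in every library, both strands, protein-coding genes alone, a replicate block and fits without 1 culture. A fit without *Rnmt* cKO replicates 1 and 2 was added after seeing the data and assumes that the lone culture varies like the controls. Promoter windows were read from RefSeq, GRCm38.p6. Figures were drawn in matplotlib 3.10.9.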

Additional observations from a re-analysis of the deposited data

Results flagged for a closer look

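For 7 of 34 tested members (20.6%, against 9.81% of all genes) the interaction term that tests TE was past the threshold, which means that the gap between genotypes was unequal in footprints and in total RNA. The difference, RPF minus total RNA on the log2 scale, was below 0 for *Insig1* (-0.52), *Sqle* (-0.53), *Cyp51* (-0.51), *Acly* (-0.38), *Elovl1* (-0.50) and *Fads1* (-0.81) and above 0 for *Elovl6* (0.64). *Insig1* rose in both assays, whereas for *Sqle*, *Cyp51*, *Elovl1* and *Fads1* total RNA rose and RPF was not past the threshold. *Cyp51* alone kept the call in all 6 fits that left out 1 culture.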

How the results depend on the processing

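Over all alternatives no call of a member turned its sign. In total RNA, leaving out 1 culture gave a fatty acid median of 0.09 to 0.32. In RPF such fits gave a fatty acid median of -0.18 to -0.07, a sterol median of 0.01 to 0.13, 0 to 2 fatty acid rises, 2 to 4 sterol falls and 0 to 2 sterol rises. In TE they gave 125 to 367 rises and 415 to 814 falls over all genes, 0 to 4 fatty acid falls, 0 to 1 fatty acid rises, 1 to 3 sterol falls, 0 to 1 sterol rises and a sterol median of -0.10 to -0.02. Without both *Rnmt* cKO replicates 1 and 2, total RNA had 2 fatty acid rises and a median of 0.00 in that branch. RPF then had 477 rises and 520 falls over all genes, 0 sterol rises, 1 sterol fall, a sterol median of -0.15, 0 fatty acid rises and 1 fatty acid fall, and TE had 81 rises and 294 falls over all genes, 0 fatty acid rises, 0 fatty acid falls and a fatty acid median of -0.08. DESeq2 gave 2 sterol falls in RPF and 1 sterol rise, that of *Mvk*, in TE, where *Fasn* (-0.58) and *Fdft1* (-0.45) also fell past the threshold. Counts of both strands gave 1 fatty acid rise in RPF and 0 in TE, library size without TMM gave 0 fatty acid rises in TE, and no filter gave 214 rises over all genes and 0 fatty acid rises in TE. Without *Acly*, *Acss2* and *Me1* the fatty acid median was 0.33 in total RNA and 0.07 in RPF. The sterol median was -0.03 in total RNA and 0.04 in TE up to squalene and -0.18 in TE after it, and the median TE percentile of the sterol branch in controls was 62.3 after the coding correction. The cause of these shifts was not tested. The shallowest RPF library had 4123271 reads on genes, and the part of depth was not tested. Some members passed the threshold in a fit without 1 culture and not with all, namely *Insig2*, *Acat2*, *Acaca*, *Hmgcs1* and *Srebf2* in total RNA, *Pmvk*, *Insig2* and *Msmo1* in RPF, and *Mvk*, *Fasn*, *Dhcr7* and *Srebf2* in TE. With no filter *Pmvk* fell in RPF and the TE call of *Acly* was lost.

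Deviations from the group means of same-numbered libraries of the genotypes correlated at -0.23, -0.17 and -0.48 in total RNA and 0.28, -0.12 and 0.12 in RPF. Those of other-numbered libraries correlated at -0.20 to 0.34 in total RNA and -0.33 to 0.22 in RPF. With 3 libraries per group these values cannot tell whether replicate numbers pair the genotypes. With the replicate block 2455 genes rose and 2751 fell in total RNA, 1 fatty acid gene (*Scd1*) rose in RPF, *Fdft1* passed the threshold in TE (-0.47), and the calls of *Fdps* and *Scd1* in total RNA and of *Tm7sf2* and *Fads2* in RPF were lost.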
